A study of Homo sapiens with 12 samples.

Results

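The genes described here are those that cells use to answer a shortage of amino acids or a load of unfolded protein in the endoplasmic reticulum (ER), measured on expression arrays in HEL cells after knockdown of the kinase JAK2. The list holds 43 genes, given by name with no cutoff on measured values but chosen with earlier results of these data known. Of these, 42 had a probe set of their own (a group of array probes assigned to 1 gene), among 11940 genes with one, and VLDLR-AS1 was not analysed here. For the 14 members with several probe sets, the brightest on average over the 12 arrays was used. HEL is an established human erythroleukaemia line that is homozygous for the activating JAK2 allele JAK2V617F, so controls and knockdown cells alike carried that allele. All cells received a lentivirus made from the pLKO vector with a puromycin resistance marker. There were 4 groups of 3 arrays: a GFP control, which the labels call both a vector control and a control shRNA, a hairpin against luciferase (Luc), and 2 hairpins against JAK2, named Jak2-9 and Jak2-10. The labels number the replicates without stating whether each was an infection of its own, so the p-values below rest on a spread among arrays that could be purely technical. How long after infection the cells were harvested is not stated in the labels. In bulk RNA, a change in every cell and a change in the share of cells that express a gene cannot be told apart.

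Both stress responses meet at the translation factor eIF2. Lack of amino acids acts through the kinase GCN2 and unfolded protein in the ER acts through the kinase PERK (encoded by EIF2AK3), and phosphorylated eIF2 lowers protein synthesis in general while the mRNA of the transcription factor ATF4 is translated more. ATF4 then switches on genes for amino acid synthesis, amino acid uptake and tRNA charging. The ER has 2 further sensors, IRE1 (ERN1), which splices the XBP1 mRNA, and ATF6, and these raise ER chaperones and the machinery that removes misfolded protein. Much of this control acts on translation, splicing, phosphorylation or cleavage of the regulators, which expression arrays do not measure. JAK2 transmits signals from cytokine receptors such as those for erythropoietin and thrombopoietin, and JAK2V617F signals without a ligand.

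The promoters of the members carry different known response elements. RefSeq promoter windows (build GRCh38.p14, 250 bases before to 50 after a transcription start) were found for 38 of the 43 listed genes and were searched on both strands. The letters TGATGNAA, the core of the C/EBP-ATF response element that ATF4 binds, occurred in the windows of 13 of the 38 (34.2%) against 4.46% of 27305 genes. Those 13 were ATF3, CEBPG, CHAC1, ASNS, SLC3A2, SLC1A5, SLC1A4, AARS1, CARS1, GARS1, MARS1, NARS1 and HERPUD1. The ER stress response element bound by ATF6, searched as CCAAT, any 9 bases and CCACG, occurred in 5 of the 38 (13.2%), namely XBP1, HSPA5, HSP90B1, CALR and CANX, against 0.0916% of genes. The letters TGACGTGG, the unfolded protein response element, occurred in ALDH18A1 and CARS1, which is 5.26% of the 38 against 0.927% of genes. These matches describe the sequence only, and the shares carry no test. Below are the 250 bases upstream of the start of 4 members with the ATF4-type core and 3 with the ER stress element, each read 5′ to 3′ on the strand of the gene with the match in capitals. They are shown as examples of each element among members described below. On Jak2-9 replicate 1, members with the ER stress element went both ways by the probe sets used, CALR upward and HSPA5 and HSP90B1 downward. HSPA5 and HSP90B1 were also below the control mean on Jak2-10 replicate 3, at -0.26 and -0.37 in log2.
ASNS, chr7:97872409-97872658, minus strand: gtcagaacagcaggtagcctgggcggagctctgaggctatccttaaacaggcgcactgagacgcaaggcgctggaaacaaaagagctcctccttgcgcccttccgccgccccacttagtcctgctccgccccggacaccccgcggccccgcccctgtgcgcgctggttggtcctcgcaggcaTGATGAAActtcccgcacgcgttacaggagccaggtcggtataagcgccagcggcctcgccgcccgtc
CHAC1, chr15:40953221-40953470, plus strand: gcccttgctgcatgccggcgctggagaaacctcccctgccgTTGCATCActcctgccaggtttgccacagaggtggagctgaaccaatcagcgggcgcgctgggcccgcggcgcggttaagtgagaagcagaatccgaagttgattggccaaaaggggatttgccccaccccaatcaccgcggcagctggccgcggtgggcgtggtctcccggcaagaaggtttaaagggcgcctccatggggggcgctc
AARS1, chr16:70289507-70289756, minus strand: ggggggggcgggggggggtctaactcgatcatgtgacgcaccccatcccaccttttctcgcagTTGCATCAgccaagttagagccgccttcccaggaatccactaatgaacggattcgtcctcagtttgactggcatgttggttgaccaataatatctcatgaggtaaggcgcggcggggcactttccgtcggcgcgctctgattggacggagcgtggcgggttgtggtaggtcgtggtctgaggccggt
HERPUD1, chr16:56931892-56932141, plus strand: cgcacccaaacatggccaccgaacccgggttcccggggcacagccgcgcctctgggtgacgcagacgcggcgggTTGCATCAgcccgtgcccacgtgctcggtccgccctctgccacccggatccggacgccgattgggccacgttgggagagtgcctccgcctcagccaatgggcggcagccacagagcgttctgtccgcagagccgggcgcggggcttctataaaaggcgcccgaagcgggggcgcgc
HSPA5, chr9:125241344-125241593, minus strand: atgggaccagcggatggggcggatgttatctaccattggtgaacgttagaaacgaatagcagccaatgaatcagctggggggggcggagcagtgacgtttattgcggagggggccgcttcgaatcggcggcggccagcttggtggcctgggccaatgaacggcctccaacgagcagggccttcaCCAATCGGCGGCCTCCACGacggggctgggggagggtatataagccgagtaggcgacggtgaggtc
HSP90B1, chr12:103930160-103930409, plus strand: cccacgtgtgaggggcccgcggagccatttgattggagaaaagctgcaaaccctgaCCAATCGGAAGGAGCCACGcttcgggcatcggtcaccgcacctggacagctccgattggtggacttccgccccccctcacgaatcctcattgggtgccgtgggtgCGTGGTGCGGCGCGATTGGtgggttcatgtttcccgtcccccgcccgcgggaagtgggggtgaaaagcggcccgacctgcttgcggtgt
CALR, chr19:12938359-12938608, plus strand: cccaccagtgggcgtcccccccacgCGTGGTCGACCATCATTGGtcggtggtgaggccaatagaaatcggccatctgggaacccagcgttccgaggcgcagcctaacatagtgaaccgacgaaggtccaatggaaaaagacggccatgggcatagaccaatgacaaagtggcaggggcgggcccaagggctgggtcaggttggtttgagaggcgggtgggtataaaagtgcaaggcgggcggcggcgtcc
The ASNS and HSPA5 matches read in the direction of the gene, those of CHAC1, AARS1, HERPUD1 and CALR on the opposite strand, and HSP90B1 held a match in each direction.

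JAK2 itself was lower with both hairpins. Its log2 intensity was 10.47, 10.40 and 10.68 in GFP, 10.47, 10.63 and 10.56 in Luc, 9.37, 9.89 and 10.09 in Jak2-9, and 10.06, 10.04 and 9.78 in Jak2-10, so no knockdown array reached the lowest control. Over both hairpins JAK2 was reduced to 63.1% of the controls, a log2 fold change of -0.67 ± 0.11 (SE) with a limma adjusted p of 0.00401. Arrays of a group correlated at 0.9968 or more across genes in GFP and Luc and at 0.995 or more in Jak2-10, but at 0.986 to 0.997 in Jak2-9. Replicate 1 of Jak2-9 stood apart: 253 of the 11940 genes differed more than 2-fold there from the mean of the group's other replicates, and it also had the lowest JAK2 value. Results that rest on Jak2-9 are therefore given with and without it. The Alu control probe set, which reports repeat-derived RNA, was at 14.61 ± 0.07 (SD, n = 6) in controls and 14.06 ± 0.10 (SD, n = 6) in knockdown, with no overlap (two-sided exact permutation test, p = 0.00216, 0.0195 adjusted over 9 such comparisons). Its part in the results was not tested. The 3′ minus 5′ difference of the GAPDH control, a sign of RNA quality, showed no such separation (exact p = 0.714). The same measure of ACTB gave an exact p of 0.21 over both hairpins. In Jak2-10 alone ACTB was lower, 0.17 against 0.27 in controls (exact p = 0.0476, 0.107 adjusted over the 9 comparisons). Jak2-9 replicate 1 had the highest value of the 12 arrays for GAPDH, 0.09, and for ACTB, 0.42. The highest control values were -0.004 for GAPDH and 0.38 for ACTB. Summed intensities of 8 erythroid and megakaryocytic markers were 35194 to 37583 in controls and 35096 to 40335 in knockdown. In Jak2-9 against both controls 7 of these 8 markers lay above 0, with a median log2 fold change of 0.29 (0.15 without replicate 1), and the embryonic globin HBZ passed the test. In that comparison, no marker of this list passed without replicate 1, without Jak2-10 replicate 3, or with quantile normalization. Over both hairpins 0 markers of this list passed with all arrays, and 1 passed, upward, without Jak2-9 replicate 1. The summed intensities were 559 to 685 and 608 to 699 for 5 lymphoid markers, 115 to 129 and 122 to 147 for 5 monocyte and granulocyte markers, and 1187 to 1426 and 969 to 1312 for 6 stromal and epithelial markers. Some other markers of these lists were not analysed here. None of these 16 markers of other cell types passed the test in the comparisons below, and their part in the results was not tested. No marker was listed at 0, but the lowest intensity of any probe set was 11.2. Single bright genes made up most of 3 of these sums: HBG1 (mean log2 14.7) for the erythroid list, CD2 (8.96) for the lymphoid and DCN (10.12) for the stromal.

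**Figure D1:**
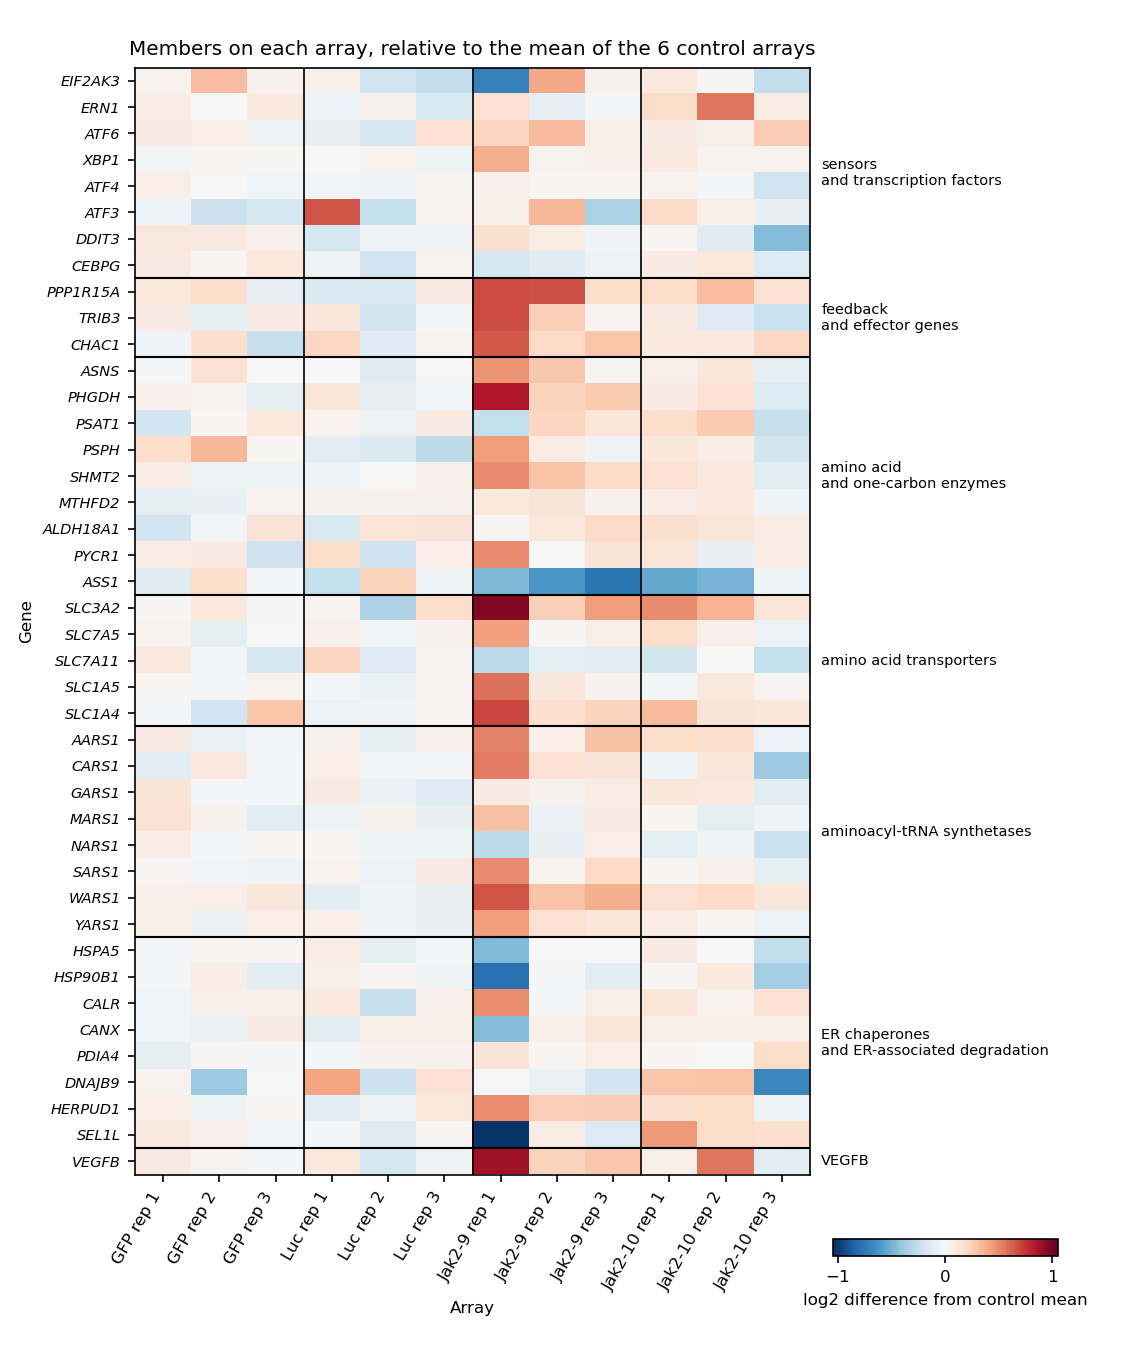
Each row is a member, grouped by role, and each column an array; colour gives the log2 intensity minus the mean of the 6 control arrays (red higher, blue lower). Jak2-9 replicate 1 has the strongest colours, from -1.03 for SEL1L to 0.97 for SLC3A2, and ASS1 is the one row that is blue on 5 of the 6 knockdown arrays by 0.4 or more.

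Across both hairpins against both controls, 2 of the 42 members changed. WARS1, the tryptophanyl-tRNA synthetase, rose by 1.23-fold (log2 fold change 0.30 ± 0.07 SE, limma adjusted p = 0.0463). ASS1, argininosuccinate synthase of arginine synthesis, fell to 71.4% of its control level (-0.49 ± 0.11 SE in log2, adjusted p = 0.032). Of all genes, 1.83% passed this test, 0.436% higher and 1.39% lower. The members' median log2 fold change was 0.11, with 30 above 0 and 12 below, beside 0.04 for all genes, of which 63.5% lay above 0. At an unadjusted p under 0.05 there were 11 members higher and 1 lower, beside 10.5% and 5.72% of all genes. For no member did all 6 knockdown arrays lie above or below all 6 controls, beside 1.2% and 1.51% of all genes. Both calls lay near the threshold. The WARS1 call was lost when any one of the GFP, Luc or Jak2-10 arrays was left out (9 of 12 fits, adjusted p 0.0698 to 0.133). The ASS1 call was lost in 8 of 12 (adjusted p 0.0504 to 0.101: without any one GFP array, Luc replicates 2 or 3, Jak2-9 replicate 2, or Jak2-10 replicates 1 or 2). With each array centred on its median, or with quantile normalization, neither member passed.

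With the Jak2-9 hairpin, 3 of the 42 members changed, and 3.07% of all genes did. WARS1 and PPP1R15A rose and ASS1 fell, beside 1.6% of all genes higher and 1.47% lower. The members' median log2 fold change was 0.16, with 32 of 42 above 0, against 0.06 for all genes, of which 63.7% lay above 0. At an unadjusted p under 0.05 there were 16 members higher and 1 lower, beside 17% and 7.22% of all genes. All 3 Jak2-9 arrays lay above all 6 controls for 9 members and below them for 1, beside 9.41% and 3.8% of all genes. Without replicate 1 the members' median was 0.09 (all genes 0.04), and 33 members lay above 0 (62.3% of all genes). There 2 members changed, WARS1 higher and ASS1 lower, beside 1.31% of all genes, 0.302% higher and 1.01% lower. The members at an unadjusted p under 0.05 then numbered 7 higher and 1 lower, beside 8.32% and 4.25% of all genes. Leaving out replicate 3 instead gave 9 members called, beside 11% of all genes: WARS1, PPP1R15A, SLC3A2, PHGDH, SHMT2, ASNS, HERPUD1 and TRIB3 higher and ASS1 lower. Leaving out replicate 2 gave 5, beside 7.37%: WARS1, SLC3A2, PHGDH and AARS1 higher and ASS1 lower. Leaving out GFP replicate 2 or Luc replicate 2 left 1, WARS1. Of all genes, 191 were called higher and 176 lower, a split that became 152 and 214 with arrays centred on their medians and 126 and 240 with quantile normalization, while the members' calls stayed at 2 higher and 1 lower under both.

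**Figure D2:**
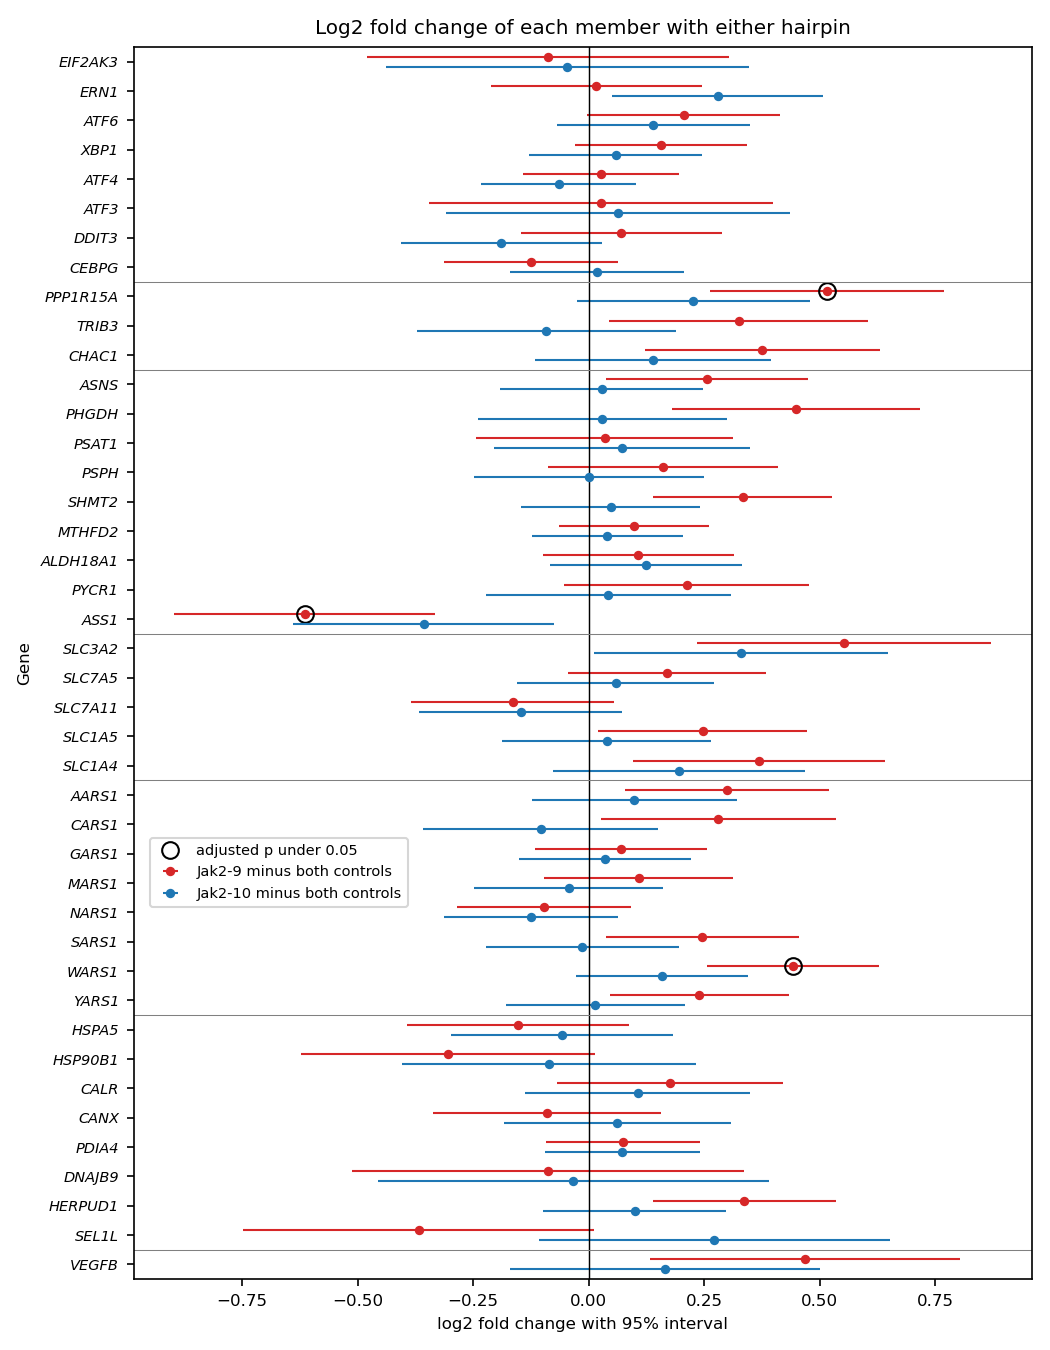
The horizontal axis is the log2 fold change of each member against the mean of the GFP and Luc groups, with 95% intervals, for Jak2-9 (red) and Jak2-10 (blue), which share those 6 control arrays; rings mark adjusted p under 0.05. The rings stand on PPP1R15A at 0.52, ASS1 at -0.61 and WARS1 at 0.44, all in Jak2-9.

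None of the 8 sensors and transcription factors passed the test in Jak2-9, and their median log2 fold change was 0.03 (-0.02 with quantile normalization). ATF4 is the factor that the amino acid and ER branches share. Its log2 intensity was 12.49, 12.43 and 12.40 in GFP, 12.40, 12.39 and 12.46 in Luc, 12.48, 12.44 and 12.45 in Jak2-9, and 12.46, 12.40 and 12.22 in Jak2-10. The groups overlapped, with Jak2-10 replicate 3 the lowest array, and the Jak2-9 log2 fold change was 0.03 ± 0.08 SE with a 95% interval from -0.14 to 0.20, and -0.05 with quantile normalization. DDIT3, the CHOP factor linked to cell death under lasting stress, read 7.43, 7.42 and 7.38 in GFP, 7.14, 7.29 and 7.29 in Luc, 7.49, 7.40 and 7.29 in Jak2-9, and 7.34, 7.20 and 6.86 in Jak2-10. All 3 Luc arrays lay below all 3 GFP arrays, and Jak2-10 replicate 3 was the lowest of the 12. The DDIT3 log2 fold change in Jak2-9 was 0.07 ± 0.10 SE (-0.015 against GFP alone).

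XBP1, whose spliced mRNA encodes the IRE1-driven factor, read 8.10, 8.15 and 8.15 in GFP, 8.13, 8.17 and 8.08 in Luc, 8.51, 8.17 and 8.19 in Jak2-9, and 8.23, 8.17 and 8.17 in Jak2-10. Jak2-9 replicate 1 alone lay more than 0.3 above the highest control, and the log2 fold change of 0.16 (95% interval -0.03 to 0.34) was 0.05 without it. The probe set does not separate spliced from unspliced XBP1 by anything in these files. ERN1, the IRE1 sensor, was the one member of this role with an unadjusted p under 0.05 in Jak2-10, at log2 fold change 0.28 ± 0.11 SE (adjusted p = 0.693). It read 4.62, 4.54 and 4.64 in GFP, 4.48, 4.59 and 4.38 in Luc, 4.70, 4.45 and 4.52 in Jak2-9, and 4.74, 5.10 and 4.62 in Jak2-10. Jak2-10 replicate 2 set that value, since without it the log2 fold change was 0.14, and ERN1 was also the one member among the dimmest 30% of genes. ATF3, CHAC1 and ASS1 were the next dimmest members, at percentiles 30.8, 35.95 and 46.35 of mean log2 intensity over all genes. The other sensors and factors (EIF2AK3, ATF6, ATF3 and CEBPG) had Jak2-9 log2 fold changes from -0.12 for CEBPG to 0.21 for ATF6. EIF2AK3, the PERK kinase, lay 0.71 below the control mean on Jak2-9 replicate 1 and 0.40 above it on replicate 2. Its log2 fold change was -0.09 with all 3 Jak2-9 arrays and 0.22 without replicate 1, the highest of the role there (adjusted p = 0.513).

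All 3 feedback and effector genes lay above control in Jak2-9, and PPP1R15A passed the test. PPP1R15A encodes GADD34, which directs a phosphatase to eIF2 and so restores translation. Its log2 intensity was 7.71, 7.78 and 7.51 in GFP, 7.44, 7.44 and 7.69 in Luc, 8.28, 8.27 and 7.78 in Jak2-9, and 7.79, 7.92 and 7.76 in Jak2-10. Replicates 1 and 2 of Jak2-9 stood above every other array while replicate 3 was level with the highest GFP array. The fold was 1.43 in Jak2-9 (log2 fold change 0.52 ± 0.12 SE, adjusted p = 0.0326), and a further PPP1R15A probe set gave 0.50. Without Jak2-9 replicate 1 it was 0.43 (adjusted p = 0.128). The call was lost in 8 of 12 leave-one-out fits (adjusted p 0.0503 to 0.128: without any one GFP array, Luc replicates 1 or 2, Jak2-9 replicates 1 or 2, or Jak2-10 replicate 1). It was also lost against GFP alone (adjusted p = 0.15) and with only the arrays compared in the fit (0.0733).

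CHAC1, an enzyme that degrades glutathione and a strong ATF4 target, read 4.79, 5.0 and 4.59 in GFP, 5.05, 4.69 and 4.86 in Luc, 5.47, 5.03 and 5.12 in Jak2-9, and 4.93, 4.93 and 5.05 in Jak2-10. Jak2-9 replicate 2 lay within the control range, and the log2 fold change was 0.38 ± 0.12 SE (adjusted p = 0.0846), or 0.24 without replicate 1. TRIB3, a pseudokinase that restrains ATF4, ran from 7.52 to 7.83 in controls and read 8.40, 7.97 and 7.74 in Jak2-9. It gave 0.33 in Jak2-9 (adjusted p = 0.151), 0.14 without replicate 1, and -0.09 in Jak2-10.

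Among the 9 enzymes of amino acid and one-carbon synthesis, 8 lay above control in Jak2-9 and none of those passed the test, while ASS1 fell. ASS1 read 5.96, 6.28 and 6.07 in GFP, 5.84, 6.32 and 6.05 in Luc, 5.62, 5.47 and 5.33 in Jak2-9, and 5.55, 5.60 and 6.04 in Jak2-10. All Jak2-9 arrays and Jak2-10 replicates 1 and 2 lay below every control, and Jak2-10 replicate 3 lay among the controls. With Jak2-9 its level was 65.3% of the controls' (-0.61 ± 0.13 SE in log2, adjusted p = 0.0241), and without replicate 1 at -0.69 (adjusted p = 0.0227), so the fall was as large without the array that stood apart. The call was lost without GFP replicate 2 (adjusted p = 0.0595) or Luc replicate 2 (0.0573), the 2 highest controls. It was also lost against GFP alone (0.0762) and against Luc alone (0.0662), at log2 fold changes of -0.63 and -0.60. ASS1 has many processed pseudogenes, and which copies its 1 probe set reads was not tested.

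ASNS, asparagine synthetase and a standard readout of the amino acid response, was 9.02, 9.20 and 9.03 in GFP, 9.03, 8.91 and 9.04 in Luc, 9.51, 9.33 and 9.05 in Jak2-9, and 9.10, 9.16 and 8.94 in Jak2-10. Jak2-9 replicates 1 and 2 exceeded all controls and replicate 3 did not. The log2 fold change was 0.26 ± 0.10 SE (adjusted p = 0.15) in Jak2-9, 0.15 without replicate 1, and 0.03 (95% interval -0.19 to 0.25) in Jak2-10.

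PHGDH and SHMT2, which open serine synthesis and pass serine carbon to the mitochondrial folate pool, had the clearest upward values of this role. PHGDH read 8.62, 8.61 and 8.47 in GFP, 8.70, 8.48 and 8.54 in Luc, 9.41, 8.80 and 8.85 in Jak2-9, and 8.66, 8.72 and 8.43 in Jak2-10. SHMT2 read 11.75, 11.61 and 11.62 in GFP, 11.63, 11.68 and 11.72 in Luc, 12.17, 11.97 and 11.87 in Jak2-9, and 11.82, 11.77 and 11.56 in Jak2-10. For both genes all 3 Jak2-9 arrays exceeded all 6 controls, and the Jak2-10 arrays spanned them. The Jak2-9 log2 fold changes were 0.45 ± 0.13 SE for PHGDH (adjusted p = 0.0607) and 0.33 ± 0.09 SE for SHMT2 (adjusted p = 0.0568), or 0.25 for each without replicate 1. PSAT1, PSPH, MTHFD2, ALDH18A1 and PYCR1, the remaining enzymes of serine, one-carbon and proline synthesis, had Jak2-9 log2 fold changes between 0.04 and 0.21, and none had an unadjusted p under 0.05.

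None of the 5 amino acid transporters passed the test, and 4 lay above control in Jak2-9. SLC3A2 encodes the heavy chain CD98 that carries the light chains SLC7A5 and SLC7A11 to the cell surface. It read 7.5, 7.59 and 7.47 in GFP, 7.51, 7.16 and 7.67 in Luc, 8.45, 7.73 and 7.92 in Jak2-9, and 7.98, 7.84 and 7.61 in Jak2-10. All Jak2-9 arrays and Jak2-10 replicates 1 and 2 exceeded every control. The log2 fold change was 0.55 ± 0.15 SE in Jak2-9 (adjusted p = 0.0555), the largest upward value among members there, 0.34 without replicate 1, and 0.33 ± 0.15 SE in Jak2-10 (adjusted p = 0.85). SLC3A2 passed when Jak2-9 replicate 2 (0.71, adjusted p = 0.0252) or replicate 3 (0.61, adjusted p = 0.0403) was left out.

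SLC1A4, a transporter of alanine, serine and cysteine, read 8.38, 8.19 and 8.68 in GFP, 8.33, 8.35 and 8.42 in Luc, 9.09, 8.57 and 8.62 in Jak2-9, and 8.73, 8.52 and 8.51 in Jak2-10. GFP replicate 3 lay above Jak2-9 replicates 2 and 3, so the groups overlapped. Its Jak2-9 log2 fold change was 0.37 ± 0.13 SE (adjusted p = 0.106), or 0.20 without replicate 1, and its probe set is of a type that may read related transcripts. SLC1A5, the glutamine transporter, and SLC7A5, the leucine transporter, gave 0.25 and 0.17 in Jak2-9 and 0.08 and 0.04 without replicate 1. SLC7A11, the cystine transporter, lay lower with both hairpins by the probe set used, at -0.16 (adjusted p = 0.345) and -0.15 (adjusted p = 1), with neither passing. Its dimmer probe sets gave -0.49 (limma adjusted p = 0.179) and -0.04 in Jak2-9. In Jak2-10 they gave 0.01 and 0.04, so they did not show the lower value there.

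The 8 aminoacyl-tRNA synthetases, which load tRNAs with their amino acids, had a median log2 fold change of 0.24 in Jak2-9 (0.13 without replicate 1), and WARS1 alone passed. WARS1 read 9.33, 9.34 and 9.40 in GFP, 9.17, 9.23 and 9.20 in Luc, 9.94, 9.58 and 9.65 in Jak2-9, and 9.44, 9.48 and 9.40 in Jak2-10. All Jak2-9 arrays exceeded all controls, and the Luc arrays lay below the GFP arrays. The Jak2-9 fold was 1.36 (log2 fold change 0.44 ± 0.09 SE, adjusted p = 0.0151), and without replicate 1 the log2 fold change was 0.34 (adjusted p = 0.0439). WARS1 passed in all 12 leave-one-out fits in Jak2-9 (adjusted p 0.0129 to 0.045), but not against GFP alone (0.36, adjusted p = 0.12). Its second probe set gave a smaller 0.17 (limma adjusted p = 0.21, adjusted over all 19415 probe sets with 1 gene symbol).

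AARS1, for alanine, read 10.62, 10.47 and 10.51 in GFP, 10.58, 10.44 and 10.59 in Luc, 11.06, 10.60 and 10.85 in Jak2-9, and 10.72, 10.71 and 10.47 in Jak2-10. YARS1, for tyrosine, read 11.76, 11.63 and 11.76 in GFP, 11.76, 11.64 and 11.61 in Luc, 12.13, 11.86 and 11.81 in Jak2-9, and 11.77, 11.72 and 11.63 in Jak2-10. Jak2-9 cleared all controls for YARS1, while for AARS1 its replicate 2 lay inside the control range. Their Jak2-9 log2 fold changes were 0.30 ± 0.10 SE (adjusted p = 0.107) and 0.24 ± 0.09 SE (adjusted p = 0.13), or 0.19 and 0.14 without replicate 1. AARS1 passed without Jak2-9 replicate 2 (0.42, adjusted p = 0.0382). The remaining 5 synthetases (CARS1, GARS1, MARS1, NARS1 and SARS1) ran from -0.10 for NARS1 to 0.28 for CARS1.

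**Figure D3:**
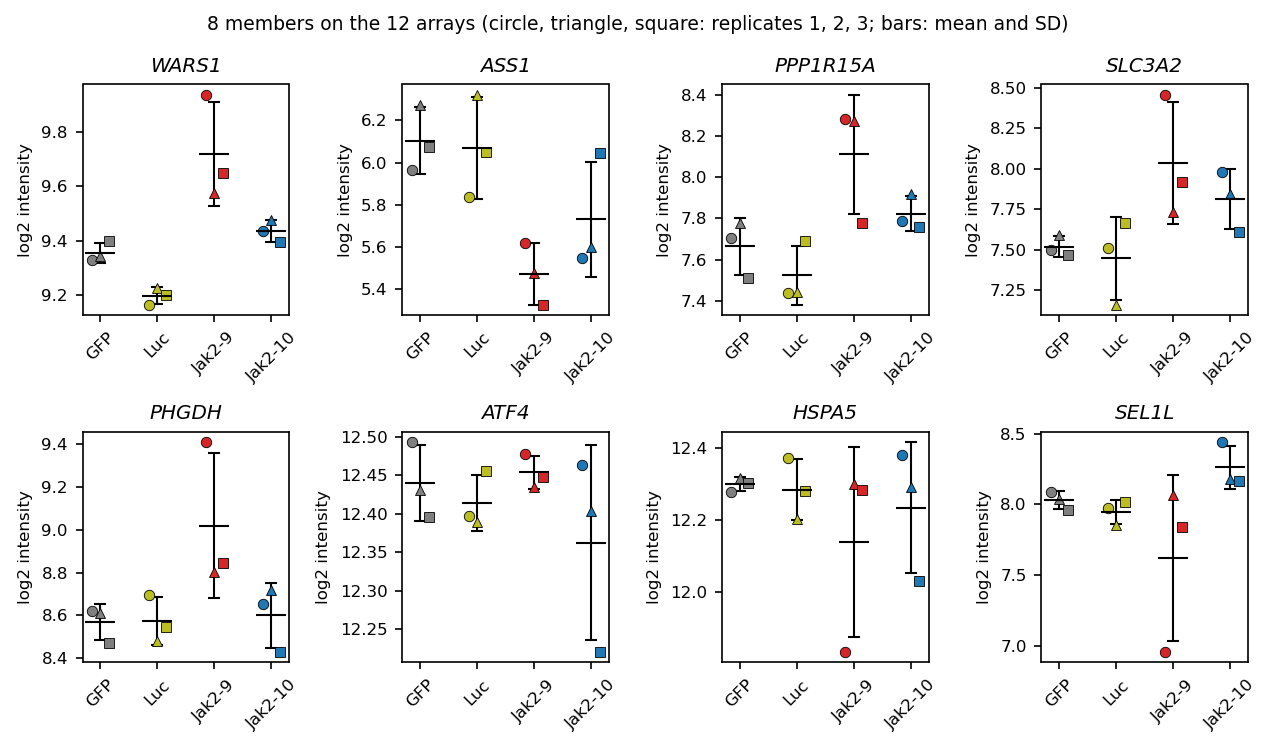
Log2 intensity of 8 members on the 12 arrays by group, with the mean and SD of each group of 3; each panel has its own vertical range, which does not start at 0. WARS1 and PHGDH are above all controls on the 3 Jak2-9 arrays, ASS1 is below them, ATF4 overlaps, and HSPA5 and SEL1L are low on Jak2-9 replicate 1.

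None of the 8 ER chaperones and degradation genes passed the test with either hairpin. Their Jak2-9 median log2 fold change was -0.09, or 0.01 without replicate 1. HSPA5, the BiP chaperone and a standard readout of ER stress, read 12.28, 12.32 and 12.30 in GFP, 12.37, 12.20 and 12.28 in Luc, 11.83, 12.30 and 12.28 in Jak2-9, and 12.38, 12.29 and 12.03 in Jak2-10. Jak2-9 replicate 1 and Jak2-10 replicate 3 lay below the controls and the other 4 knockdown arrays did not. The Jak2-9 log2 fold change was -0.15 (95% interval -0.39 to 0.09) and -0.0004 without replicate 1. HSP90B1, the GRP94 chaperone, gave -0.30 (adjusted p = 0.228), and -0.06 without replicate 1. Its dimmer probe sets gave -0.13, -0.35 and -0.71 with all Jak2-9 arrays, none passing. By the probe set used, HSP90B1 lay below every control on Jak2-9 replicate 1 (11.63) and on Jak2-10 replicate 3 (12.04).

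HERPUD1, which helps remove misfolded protein from the ER, had the highest Jak2-9 value of this role. It read 8.5, 8.38 and 8.45 in GFP, 8.32, 8.40 and 8.54 in Luc, 8.92, 8.69 and 8.69 in Jak2-9, and 8.60, 8.62 and 8.37 in Jak2-10. All Jak2-9 arrays exceeded all controls, at log2 fold change 0.34 ± 0.09 SE (adjusted p = 0.0575), or 0.26 without replicate 1. SEL1L, of the same degradation machinery, gave -0.37 in Jak2-9 (adjusted p = 0.222) and -0.04 without replicate 1. The others (CALR, CANX, PDIA4 and DNAJB9) lay between -0.09 and 0.18 in Jak2-9. CALR gave 0.18 by the probe set used, and its dimmer ones gave 0.18, -0.11, -0.01 and 0.13, so they did not all share its direction. CANX gave -0.09 by the one used, and -0.24 and -0.37 by its dimmer ones. VEGFB, a vascular growth factor on the list, read 6.86, 6.80 and 6.75 in GFP, 6.87, 6.57 and 6.71 in Luc, 7.65, 7.0 and 7.05 in Jak2-9, and 6.82, 7.32 and 6.64 in Jak2-10. The 3 Jak2-9 arrays exceeded all controls, and the log2 fold change was 0.47 ± 0.16 SE (adjusted p = 0.098), or 0.26 without replicate 1.

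On Jak2-9 replicate 1 the roles differed in their medians. Its GAPDH and ACTB 3′ minus 5′ values were also the highest, though GFP replicate 1 came near for ACTB (0.38 beside 0.42). On that array 27 of the 42 members (64.3%) lay above the range of the 6 controls and 9 (21.4%) below it, beside 44.0% and 24.2% of all genes. Members lay a median of 0.34 above the control mean, beside 0.10 for all genes. The feedback and effector genes lay 0.69 above, the transporters 0.58, the synthetases 0.47 and the enzymes 0.44, whereas the sensors lay 0.11 above and the ER chaperones and degradation genes 0.23 below (median -0.23). Within the last role 4 of 8 lay below the control range, among them HSP90B1 at -0.78 and SEL1L at -1.03, while CALR and HERPUD1 lay 0.49 above. Other lists moved on this array as well. The erythroid and megakaryocytic markers had a median of 0.51, lymphoid markers 0.31, monocyte and granulocyte markers 0.28, and stromal and epithelial markers -0.05. Other ATF4 targets had 0.30, the eIF2 pathway genes 0.30, other synthetases 0.12 and other ER stress genes 0.14, and so the other ER stress genes did not have a median below 0. The part of these markers and of RNA quality was not tested. By promoter letters, the 13 members with the ATF4-type core had a median of 0.49 on this array, with 9 above the control range, and 1 below it. The 5 with the ER stress element had -0.46, with 3 below it (HSPA5, HSP90B1 and CANX) and 2 above it (CALR at 0.49 and XBP1 at 0.38). The 19 measured members with a window and neither match had 0.16. On Jak2-9 replicates 2 and 3 the ATF4-type medians were 0.16 and 0.09 and those of the ER stress element 0.01 and 0.06, so the latter did not fall below 0 there. These medians are those of 1 array, with no replicate of its own and no test.

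**Figure D4:**
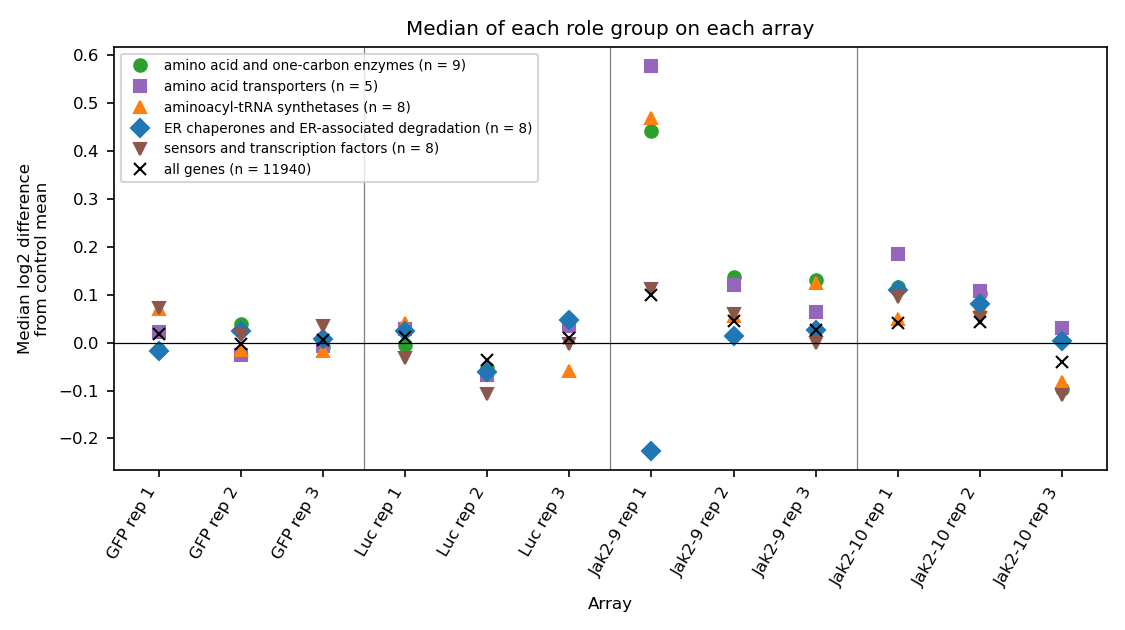
Points give, for each array, the median over the genes of a role of the log2 intensity minus the mean of the 6 control arrays; crosses give all 11940 genes. On Jak2-9 replicate 1 the transporters, synthetases and enzymes reach 0.58, 0.47 and 0.44 and the ER chaperones and degradation genes -0.23, while on every other array the medians shown lie within 0.2 of 0.

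With Jak2-10, 0 of the 42 members passed the limma test, beside 0.687% of all genes (0.0419% higher, 0.645% lower). At an unadjusted p under 0.05, 2 lay higher and 1 lower, beside 2.65% and 3.11%. Those were SLC3A2, ERN1 and ASS1, the last with a log2 fold change of -0.36 ± 0.13 SE (adjusted p = 0.64). The members' median was 0.04 with 29 of 42 above 0, beside 0.02 and 56.6% for all genes. The 3 arrays lay above all controls for 1 member, SEL1L, and below them for 1, NARS1, beside 2.68% and 2.6% of all genes. Without replicate 3 the members' median was 0.09 with 36 above 0, beside 0.04 and 7878 of 11940 for all genes. Jak2-9 without its replicate 1 gave 0.09 with 33 above 0. The array left out of Jak2-10 was its lowest for the members, a median of -0.18 against its group's others. That of Jak2-9 was its highest, at 0.24. With all arrays the medians were 0.04 and 0.16, so their likeness depends on the arrays left out. The 3 Jak2-10 arrays differed among themselves. In replicates 1 and 2, 17 members each lay above the control range, beside 23.5% and 24.2% of all genes, and in replicate 3 only 4 did and 14 lay below it, beside 15.8% and 30.5%.

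No member differed between the 2 hairpins by limma after adjustment, nor did any of the 11940 genes (0% called). At an unadjusted p under 0.05 there were 9 members lower and 1 higher in Jak2-10 than in Jak2-9, beside 7.33% and 2.5% of all genes, and 13 of 42 lay above 0, beside 40.5%. Without Jak2-9 replicate 1 the counts were 0 lower and 2 higher, beside 2.4% and 1.83% of all genes, so none of the lower values held without that array at this threshold. The 3 arrays of each hairpin did not overlap for 7 members, 6 lower and 1 higher in Jak2-10, beside 8.74% and 2.98% of all genes. SEL1L read 8.09, 8.04 and 7.96 in GFP, 7.97, 7.85 and 8.02 in Luc, 6.96, 8.07 and 7.84 in Jak2-9, and 8.44, 8.18 and 8.16 in Jak2-10. Its Jak2-10 arrays lay above all 9 others, and the difference of 0.64 (95% interval 0.20 to 1.08, adjusted p = 0.499) was 0.31 without Jak2-9 replicate 1. The dimmer SEL1L probe sets did not show this, with hairpin differences of 0.18, 0.05 and -0.05. In Jak2-10 against control they gave -0.02, 0.04 and -0.16, beside 0.27 for the one used. PHGDH differed by -0.42 (95% interval -0.73 to -0.11) and WARS1 by -0.28 (95% interval -0.50 to -0.07), both lower on all 3 Jak2-10 arrays than on all 3 Jak2-9 arrays. Without Jak2-9 replicate 1 these differences were -0.22 and -0.18 (adjusted p = 0.931 for each). The ATF4 difference was -0.09 (95% interval -0.29 to 0.10) and that of ASS1 was 0.26 (95% interval -0.07 to 0.58). The 2 hairpins share their controls in the comparisons above, so their fold changes are not independent.

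Between the 2 controls, 0 of 42 members and 0% of all genes passed by limma. At an unadjusted p under 0.05, 1 member was lower in Luc than in GFP and 0 higher, beside 0.905% and 1.01% of all genes. The members' median was -0.03 with 17 above 0 (44.8% of all genes), and the groups did not overlap for 3 lower and 1 higher, beside 5.88% and 3.58%. The lower one by p was PSPH, the last enzyme of serine synthesis, at 6.90, 7.07 and 6.74 in GFP and 6.60, 6.56 and 6.44 in Luc (log2 fold change -0.37 ± 0.13 SE, adjusted p = 1). It read 7.16, 6.80 and 6.68 in Jak2-9 and 6.83, 6.80 and 6.53 in Jak2-10, so Jak2-9 overlapped GFP and lay above Luc, and Jak2-10 overlapped both. WARS1 was also lower in Luc on all 3 arrays, by 0.16 in log2 (-0.16, 95% interval -0.37 to 0.06). ATF3, a stress-induced repressor, read 4.70, 4.52 and 4.56 in GFP, 5.41, 4.49 and 4.78 in Luc, 4.81, 5.09 and 4.41 in Jak2-9, and 4.94, 4.81 and 4.67 in Jak2-10. Luc replicate 1 held its highest value of the 12 arrays, and its Luc difference of 0.30 was 0.05 without that array.

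Few other genes of the same pathways passed the test. Across both hairpins none of 15 other ATF4 targets, 10 other synthetases, 11 eIF2 pathway genes or 19 other ER stress genes passed, and 9 lay higher and 1 lower at an unadjusted p under 0.05, beside 10.5% and 5.72% of all genes. Their median log2 fold changes were 0.08, 0.02, 0.06 and 0.06, beside 0.04 for all genes. In Jak2-9 the medians were 0.11, 0.09, 0.13 and 0.12, beside 0.06 for all genes, and 2 of these genes rose, beside 1.6% of all genes. FARSA, a subunit of the phenylalanyl-tRNA synthetase, gave 0.52 ± 0.11 SE (adjusted p = 0.0256), and EIF2B2, a subunit of the exchange factor that recharges eIF2, gave 0.42 ± 0.10 SE (adjusted p = 0.0431). Without replicate 1 they gave 0.37 and 0.29 and neither passed. CEBPB, a partner of ATF4, lay above all 6 controls on all 6 knockdown arrays, at 0.34 ± 0.09 SE over both hairpins (adjusted p = 0.0901), beside 1.20% of all genes with that separation. GOT1, an aspartate aminotransferase, gave 0.26 (adjusted p = 0.198) and LARS1, the leucyl-tRNA synthetase, gave -0.24 (adjusted p = 0.187). EIF2S1, the subunit of eIF2 that the stress kinases phosphorylate, gave 0.10 (adjusted p = 0.452). SEC61B, of the ER import channel, and SDF2L1, an ER chaperone partner, gave 0.21 (adjusted p = 0.178) and 0.19 (adjusted p = 0.218).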

How the data were processed

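Total RNA of HEL cells was amplified from 20 ng and labelled for 12 arrays, per the labels' protocols. The deposited values are intensities that the authors computed with RMA, per the submitters' processing notes, which name no version. They are on a linear scale, from 11.2 to 36233.5, with array medians of 44.9 to 49.1. The number of arrays limits the precision.

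Log2 of the intensity was taken without a pseudocount. Of 22930 probe sets, 524 controls, 125 with several symbols and 2866 unnamed were left out, and 19415 with 1 symbol gave 11940 genes by the brightest probe set. A model of 4 group means over the 12 arrays was fitted with limma 3.58.1 (lmFit, eBayes) in R 4.3.3, with Benjamini-Hochberg adjustment over all genes and a threshold of 0.05. Control means weight GFP and Luc equally. Exact permutation tests used scipy 1.17.1. The script was checked on simulated data.

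The members and lists were chosen with earlier results of these data known. Values on every array were given for called members, for up to 12 members with the lowest p in Jak2-9 and up to 3 in each of Jak2-10, Jak2-10 against Jak2-9 and Luc against GFP, and for ATF4, DDIT3, ASNS, XBP1 and HSPA5; other pathway genes were named if called or among the 2 lowest p of their list. TRIB3 and HSP90B1 were given more fully after their values were seen. Promoter windows were taken from RefSeq. Alternatives covered scaling, probe set choice, a filter on dim genes, array weights, the control used, a replicate block and leaving out each array.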

Additional observations from a re-analysis of the deposited data

Results flagged for a closer look

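Probe sets of members that the comparisons above did not use gave calls in 2 genes. Here p was adjusted over all 19415 probe sets with 1 gene symbol. The second PPP1R15A probe set was higher over both hairpins (log2 fold change 0.43, limma adjusted p = 0.0204) and in Jak2-9 (0.50, adjusted p = 0.0255), in the same direction as the brighter one. A dim MARS1 probe set (mean log2 intensity 5.07) was lower over both hairpins (-0.49, adjusted p = 0.0107) and in Jak2-9 (-0.51, adjusted p = 0.0298), while the brighter MARS1 probe sets gave 0.11 and 0.17 in Jak2-9, with neither passing. The dim probe set also differed between the controls, by 0.50 higher in Luc than in GFP (limma adjusted p = 1), a difference as large as that with knockdown. Of 27 unused probe sets in 14 members, 23 had the sign of the one used in Jak2-9 against control. Which transcripts of MARS1 the dim probe set reads was not tested.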

How the results depend on the processing

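The count of members called over both hairpins was 2, and it was 0 with arrays centred on their medians, 0 with quantile normalization, 1 with the replicate block, 4 with array weights, 0 against GFP alone, 1 against Luc alone, and 0 to 3 when 1 array was left out. In Jak2-9 it was 3, and it was 5 with the mean of a gene's probe sets, 5 with the replicate block, 0 against GFP alone, and 1 to 9 when 1 array was left out (9 without Jak2-9 replicate 3, 1 without GFP replicate 2 or Luc replicate 2). In Jak2-10 it was 0, and 1 with array weights (ASS1, -0.46, adjusted p = 0.0292). In Jak2-9 against control, ATF4 turned to -0.05 (-0.0491) with quantile normalization and DDIT3 to -0.015 against GFP alone, both far from the threshold. The cause of these changes was not tested. Of 573 values of named members under alternatives, 516 kept direction and side of the threshold, 41 lost the call, 14 gained one and 2 changed sign. Same-numbered arrays of different groups deviated together weakly (correlations -0.118 to 0.181, 5 of 18 pairs above 0.1). Differently numbered arrays were not compared with these, so whether the numbers pair the arrays was not settled. The replicate block moved the members' count from 2 to 1 over both hairpins and from 3 to 5 in Jak2-9. It left the count at 0 for Jak2-10, the hairpin difference and the controls, while all genes called for Jak2-10 went from 82 to 47. With 3 arrays a group the 95% intervals of the members were wide beside their fold changes, so members that missed the threshold cannot be called unchanged.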
